A study of Homo sapiens with 2 samples.

Results

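The sirtuin family comprises 7 human genes, SIRT1 to SIRT7, among 19775 genes named on the array. They were taken as every probe set whose platform annotation named one of these genes alone, which gave 17 of the 54675 probe sets on the array. The expression arrays were Affymetrix arrays hybridised with RNA from K562, an established human erythroleukemia line. In each arm 3 µg of a synthetic microRNA mimic was brought in by nucleofection, an electrical method of transfection, and total RNA was collected 24 hours later. One culture received a mimic of miR-34a and the other a control mimic whose sequence matches no human gene. There was 1 array per arm, so every value is a single measurement, no test between arms was possible, and having 1 array per arm limits the precision of every value.

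Sirtuins are enzymes that remove acetyl or other acyl groups from lysines of proteins and consume the cofactor NAD in doing so, which ties their activity to the metabolic state of the cell. SIRT1, SIRT6 and SIRT7 act mainly in the nucleus, SIRT2 mainly in the cytoplasm, and SIRT3, SIRT4 and SIRT5 in mitochondria. miR-34a is a microRNA induced by p53 that can lower mRNAs it pairs with. SIRT1, a deacetylase of p53 itself, is among the best-known targets of miR-34a. The arrays measure mRNA, so protein levels were not examined here. K562 cells lack functional p53. The family therefore holds SIRT1 as a well-known target beside its paralogues, related genes of the same enzyme class. Whether any paralogue is also a target of miR-34a was not examined here.

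The pairing between a microRNA and a target starts from the seed, bases 2 to 8 of the mature strand. The mature miR-34a-5p sequence is shown because its pairing with targets starts from its seed, and the others because they carry the same seed. Other microRNAs with this seed may be missing here. Sequences are from RefSeq (GRCh38.p14), 5′ to 3′, with the seed in capitals.
hsa-miR-34a-5p: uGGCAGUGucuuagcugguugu
hsa-miR-449a: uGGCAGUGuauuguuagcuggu
hsa-miR-449b-5p: aGGCAGUGuauuguuagcuggc
The gene of miR-34a lies on chromosome 1, with the mature strand at chr1:9151735-9151756 on the minus strand. The miR-449 strands come from chromosome 5 and match miR-34a at 15 and 13 of 22 positions counted from the 5′ end. A perfect seed match in an mRNA reads CACUGCC, the reverse complement of the capitals. Sirtuin 3′ untranslated regions were not used here, so which members carry that match was not examined.

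Signals are the deposited probe set intensities in arbitrary units. Log2 ratios are miR-34a over control after adding a pseudocount of 14.9 and subtracting the median over expressed genes, and they understate the change of dim probe sets. A probe set counted as expressed when its mean log2 level reached the array-wide median, a signal of about 39.0. A signal of at most 75.4 is called within background, since the 27 bacterial control probe sets of low signal went no higher. That limit lies above the cutoff for expression, so some genes counted as expressed were within background. Among all probe sets other than controls, 35.5% with miR-34a and 35.1% with the control exceeded the limit. By these rules 10 of the 17 sirtuin probe sets were expressed, and they covered 6 of the 7 genes. SIRT4 had none. The other 7 probe sets belonged to SIRT4 and SIRT5, read between 1.77 and 37.6 on either array, and were all within background. Probe sets differ in how strongly they bind, so the signal of one gene was not set against that of another.

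**Figure D1:**
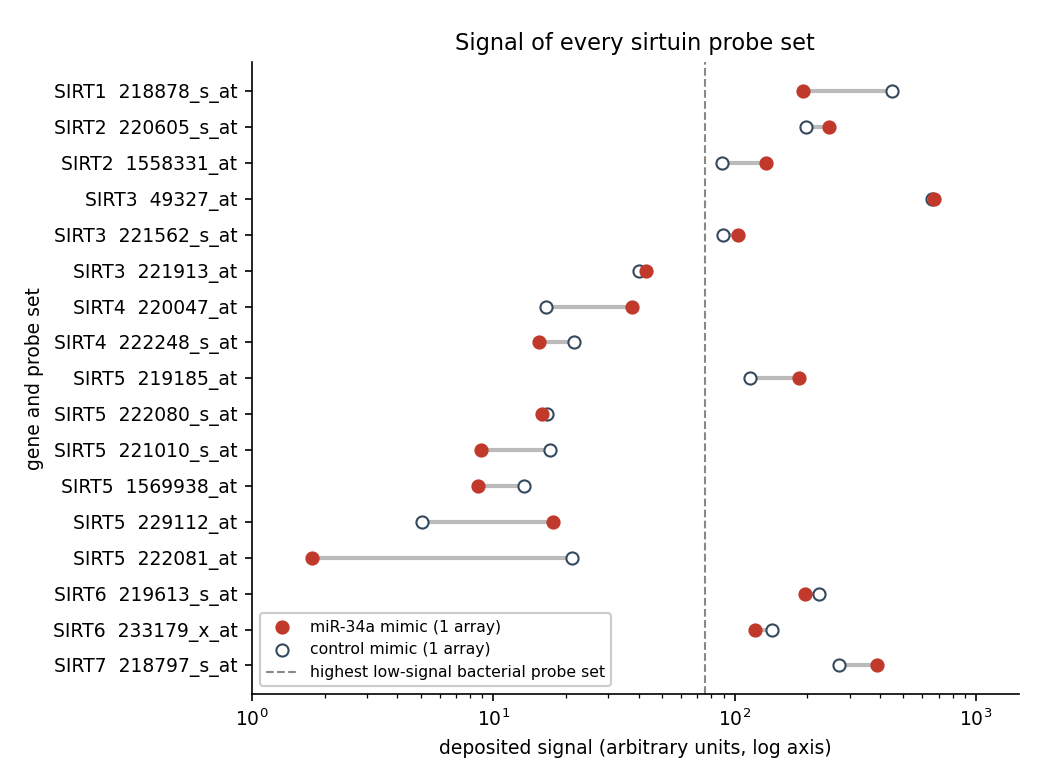
Deposited signal (arbitrary units, log axis) of all 17 sirtuin probe sets, with the miR-34a mimic as filled points and the control mimic as open points, 1 array each. The dashed line is the highest low-signal bacterial probe set, 75.4. SIRT1 read 192.5 with miR-34a and 450.4 with the control, the widest gap among probe sets that lie right of the line on both arrays.

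SIRT1 mRNA was lower with miR-34a, and of the 6 expressed sirtuin genes it was the 1 that passed 2-fold in either direction. Its single probe set, 218878_s_at, read 192.5 in the miR-34a culture against 450.4 in the control culture. Both signals stood well over the background limit, and the miR-34a signal was 0.427 of the control signal. The log2 ratio was -1.17. Of 12774 expressed genes, 0.548% were at least 2-fold lower with miR-34a and 0.595% at least 2-fold higher. SIRT1 ranked number 41 from the lowest, and 0.321% of expressed genes had a ratio as low or lower. In RNA from a whole culture, fewer cells that express SIRT1 and less SIRT1 mRNA in each cell cannot be told apart. SIRT1 has no second probe set in this annotation, so its size has no internal check on these arrays.

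The nuclear paralogues SIRT6 and SIRT7 went opposite ways, neither by 1.5-fold. SIRT6, a deacetylase of chromatin linked to DNA repair and glucose metabolism, read 194.8 with miR-34a and 223.3 with the control on probe set 219613_s_at. On its other probe set, 233179_x_at, it read 121.1 with miR-34a and 142.6 with the control. The log2 ratios were -0.19 and -0.22, so SIRT6 was slightly lower by nearly the same amount on both. SIRT7, a nucleolar enzyme tied to ribosomal DNA transcription, read 387.8 with miR-34a and 271.3 with the control, a log2 ratio of 0.48 on its only probe set, 218797_s_at. A ratio as high or higher was held by 5.43% of expressed genes, against 77.9% for SIRT6. The 5th to 95th percentiles of expressed genes ran from -0.49 to 0.50, with SIRT7 just inside the upper bound and SIRT6 far from either.

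SIRT2, the mainly cytoplasmic member that deacetylates tubulin among other proteins, was higher with miR-34a on both of its probe sets but did not pass 2-fold. Probe set 220605_s_at gave 245.4 with miR-34a and 196.9 with the control, a log2 ratio of 0.29. Probe set 1558331_at gave 134.6 with miR-34a and 88.8 with the control, a log2 ratio of 0.52. The SD between these ratios was 0.16, within the 0.24 that expressed probe sets of one gene differed by over the 5494 genes with at least 2 of them (pooled SD). That spread is technical and does not cover differences between cultures.

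The mitochondrial members differed among themselves. SIRT3, the main deacetylase of mitochondrial enzymes, had nearly equal signals of 668.3 with miR-34a and 657.0 with the control on its brightest probe set, 49327_at. The log2 ratio there was 0.015. Its dimmer probe sets, 221562_s_at and 221913_at, gave 0.17 and 0.064, and the SD over all 3 was 0.081. Probe sets 49327_at and 221913_at were designed from the same sequence record yet read far apart, with 221913_at at 43.0 with miR-34a and 40.1 with the control, within background. No probe set of SIRT3 reached a 1.5-fold difference.

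SIRT5, which removes succinyl and malonyl groups in mitochondria, had the highest ratio of the expressed sirtuins. Probe set 219185_at read 185.0 with miR-34a and 115.3 with the control, a log2 ratio of 0.61. This exceeds 1.5-fold, which 3.28% of expressed genes did in that direction and 3.01% in the other, and 2.87% of expressed genes were as high or higher. The other 5 probe sets of SIRT5 were within background on both arrays and did not agree in sign. Among them, 229112_at read 17.7 with miR-34a and 5.04 with the control, and 222081_at read 1.77 with miR-34a and 21.2 with the control. The log2 ratio of 222081_at, -1.12, is past 2-fold, but it rests on signals near the floor of the table, which was 1, and no change is read from it. The remaining 3 probe sets had ratios between -0.44 and -0.047. The higher value of SIRT5 therefore rests on 1 measurable probe set.

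SIRT4, a mitochondrial enzyme that restrains glutamate dehydrogenase, was within background on both arrays. Its probe set 220047_at read 37.6 with miR-34a and 16.5 with the control, and 222248_s_at read 15.4 with miR-34a and 21.7 with the control. The log2 ratios, 0.73 and -0.28, went opposite ways, and no direction is read from them.

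**Figure D2:**
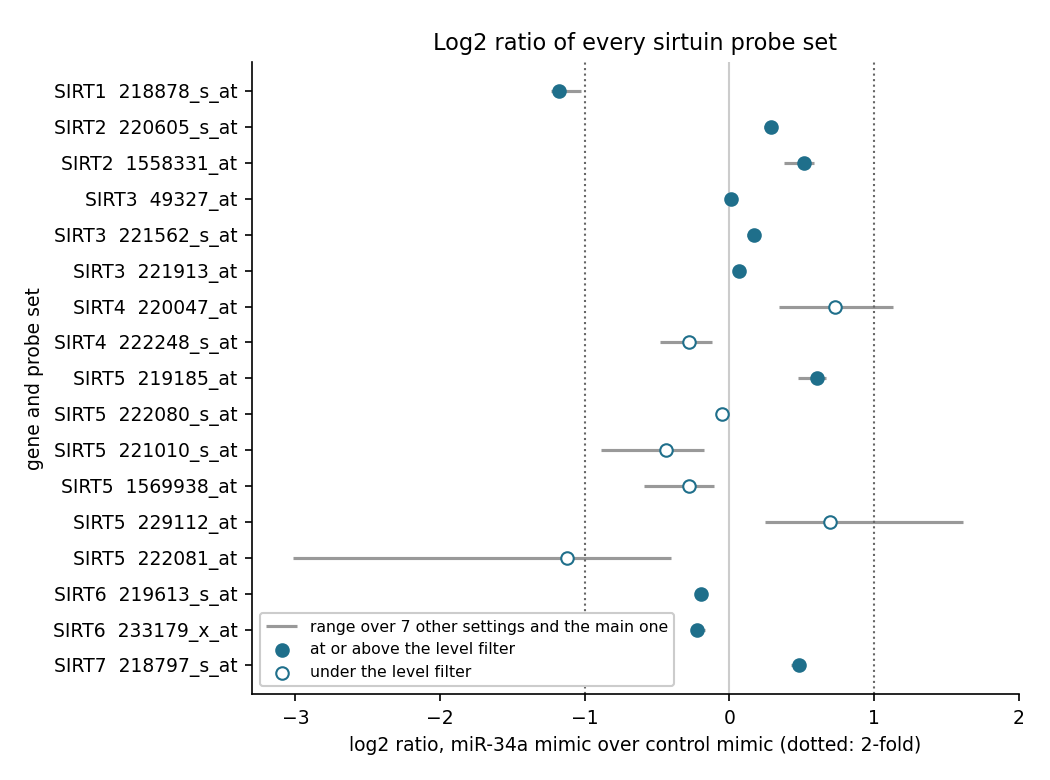
Log2 ratio of miR-34a over control for all 17 sirtuin probe sets (points, filled where expressed), with the range over the main and 7 other settings of pseudocount, centring and normalization (lines). SIRT1 stays left of the dotted 2-fold line at -1.23 to -1.02, while the dim SIRT5 probe set 222081_at spans -3.01 to -0.40.

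Counted as genes, 1 of 6 expressed sirtuins was at least 2-fold lower and 0 at least 2-fold higher, 2 were lower by any amount and 4 higher. Over all expressed genes the split by any amount is even by construction, since the median was subtracted. The 5 expressed members other than SIRT1 had a median log2 ratio of 0.29 and ranged from -0.19 to 0.61. The log2 ratio of SIRT1 less that of the lowest of them, SIRT6, was -0.98. The pooled SD of 0.24 describes probe sets of one gene, so it is no yardstick for a gap between genes. With 1 culture per arm, whether SIRT1 differs from its paralogues beyond the spread between cultures was not testable, and the same holds for the smaller values of SIRT5, SIRT7 and SIRT2. Counted as probe sets, 2 of 17 were at least 2-fold lower, SIRT1 218878_s_at and the dim SIRT5 222081_at, beside 1.28% of all probe sets other than controls. None was at least 2-fold higher, beside 1.32% of all, and 3 were at least 1.5-fold higher, beside 6.28% of all. Those 3 were SIRT5 219185_at and the dim SIRT5 229112_at and SIRT4 220047_at.

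**Figure D3:**
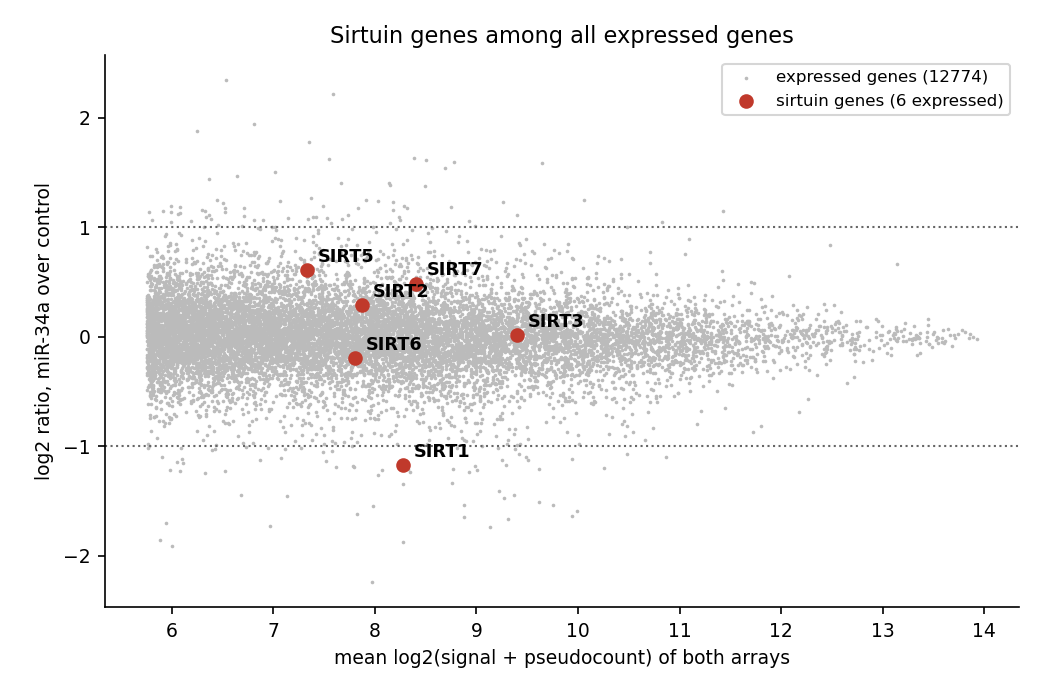
Log2 ratio of miR-34a over control against mean log2(signal + pseudocount) for 12774 expressed genes (grey) and the 6 expressed sirtuin genes (red), each gene at its brightest expressed probe set. SIRT1 lies under the dotted 2-fold line at -1.17, and the other 5 lie between -0.19 and 0.61.

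SIRT1 was set beside 12 other genes reported as miR-34a targets or responders. Of these 11 were expressed, 9 were lower and 2 higher, and the median log2 ratio was -0.77. At least 2-fold lower were 3 of the 11, beside 0.548% of all expressed genes. Without the less specific probe set classes (_s_at, _x_at and _a_at), 1 in place of 3 was at least 2-fold lower, and SIRT1 itself, with a single _s_at probe set, had no value. This list was drawn up with earlier results of these arrays known and is no independent evidence of direction. SIRT1 fell in order between LEF1, a transcription factor of the Wnt pathway, at -1.33 and MAP2K1, the kinase MEK1, at -0.93. The cell cycle kinase genes CDK6 and CDK4 were lower still, at -1.64 and -1.59, CDK4 on a single probe set. The 5 expressed probe sets of CDK6 disagreed in size, from -1.70 to -0.087 with an SD of 0.67. The transcription factor genes MYB and MYC had -0.79 and -0.77, the receptor gene NOTCH1 -0.56, the transcription factor gene E2F3 -0.44 and the cyclin gene CCNE2 -0.32. BCL2, a survival gene, was the 1 not expressed. CCND1, a cyclin gene, and MET, a receptor kinase gene, were the 2 higher ones at 0.51 and 0.11, although the second probe set of MET gave -0.38.

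The genes most like SIRT1 in ratio and level together, among genes whose 2 or more expressed probe sets all shared a sign, were AAGAB, GINS3, COL1A2, ATG4B and ANK3. Likeness was the sum of the absolute differences in log2 ratio and in mean log2 level, over the 2 arrays, and ran from 0.13 for AAGAB to 0.44 for ANK3. AAGAB, an adaptor chaperone of vesicle traffic, read 197.0 with miR-34a and 482.1 with the control, close to both signals of SIRT1. Its log2 ratio was -1.24 on that probe set and -0.80 on its other expressed one, short of 2-fold. With 2 arrays such likeness describes a pair of values and no more.

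The SIRT1 locus was checked through its neighbours, chosen by position in the RefSeq gene order after the sirtuin values were known. On chromosome 10, DNAJC12, a cochaperone gene on one side of SIRT1, read 289.6 with miR-34a and 437.6 with the control. Its log2 ratio was -0.58, with its 3 probe sets between -0.58 and -0.23. HERC4, a ubiquitin ligase gene on the other side, had 0.094. On chromosome 6, GFOD1 next to SIRT5 read 150.8 with miR-34a and 90.1 with the control, a log2 ratio of 0.65 beside the 0.61 of SIRT5, while NOL7 on its other side had -0.050. Over all 7 sirtuin genes, 9 of 15 neighbouring or overlapping protein-coding genes were measured as expressed here. Of these 0 passed 2-fold, beside 0.548% lower and 0.595% higher over all expressed genes. GFOD1 was the 1 past 1.5-fold, beside 3.28% of all expressed genes in that direction. RIC8A overlaps SIRT3 in that gene order, and its probe set, annotated to a second gene as well, was not used here.

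Genes whose products control SIRT1 or its mRNA were counted by their own mRNA. Of 15 listed regulators of SIRT1, 13 were expressed, 8 lower and 5 higher, 0 passed 2-fold, and the median log2 ratio was -0.044. Past 2-fold over all expressed genes were 0.548% lower and 0.595% higher, so 0 of 13 is near those shares. CCAR2, an inhibitor that binds the SIRT1 protein, read 331.6 with miR-34a and 334.2 with the control. RPS19BP1, known as an activator, read 913.2 with miR-34a and 958.2 with the control. ELAVL1, the RNA-binding protein HuR that stabilises SIRT1 mRNA, had a log2 ratio of -0.29 and was lower on all 3 expressed probe sets, at -0.44 to -0.29. The lowest 2 were MYC, a transcription factor linked to SIRT1 in both directions, at -0.77, and SETD7, a methyltransferase, at -0.47 within background on both arrays. The highest were the kinase DYRK3 at 0.49 and the transcription factor FOXO3 at 0.24.

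Sirtuins depend on NAD, and the gene for the rate-limiting enzyme of its salvage, NAMPT, was lower on all 4 of its expressed probe sets. NAMPT read 1178 with miR-34a and 1780 with the control on the brightest, a log2 ratio of -0.60, and the 4 ranged from -1.24 to -0.36. Probe set 217738_at, at 146.5 with miR-34a and 363.4 with the control, was the one past 2-fold. NNMT, which methylates nicotinamide and so draws on the same precursor, read 1377 with miR-34a and 445.4 with the control, a log2 ratio of 1.59, with 1.25 on its second expressed probe set. Of the 17 listed genes of NAD supply and use 12 were expressed, 6 lower and 6 higher, with a median of -0.0037. At least 2-fold lower were 0, beside 0.548% of all expressed genes. NNMT was the 1 at least 2-fold higher, beside 0.595% of all expressed genes. The next lowest was PARP1, a nuclear NAD consumer, at -0.35, and the next highest NMNAT1, which makes nuclear NAD, at 0.36.

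The zinc-dependent deacetylases, the HDAC genes, remove acetyl groups without NAD and served as a second deacetylase family. Of 11 listed, 9 were expressed, 4 were lower and 5 higher, and 0 passed 2-fold or 1.5-fold in either direction. Over all expressed genes 3.01% were at least 1.5-fold lower and 3.28% at least 1.5-fold higher, so 0 of 9 is near those shares. The median log2 ratio of the 9 HDAC genes was 0.047. HDAC1, a class I enzyme of repressor complexes, was lowest at -0.48, with signals of 1417 with miR-34a and 1970 with the control, followed by HDAC2 at -0.21. HDAC10 and HDAC6 were highest at 0.45 and 0.16, and the control signal of HDAC10, 54.6, was within background.

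Genes whose protein products are known sirtuin substrates were also counted, as mRNA levels that say nothing of acetylation. For the counts that follow, the shares past 2-fold over all expressed genes were 0.548% lower and 0.595% higher. Of 32 listed SIRT1 substrates and partners 28 were expressed, 15 lower and 13 higher, with a median log2 ratio of -0.016. KAT2B, the acetyltransferase PCAF, was the 1 past 2-fold, at 283.1 with miR-34a and 125.6 with the control, a log2 ratio of 1.08. ATG7, an autophagy enzyme, followed at 0.30, and the lowest were MYC at -0.77 and the DNA repair gene XPA at -0.53. Of 15 mitochondrial substrates 11 were expressed, 5 lower and 6 higher, 0 past 2-fold, with a median of 0.032. IDH2, a SIRT3 substrate that makes NADPH, read 631.9 with miR-34a and 387.9 with the control, at 0.67 and 0.52 on its probe sets. MLYCD, a SIRT4 substrate of malonyl-CoA metabolism, had 0.59, its control signal of 64.7 being within background, and MRPL10, a mitochondrial ribosomal protein gene, was lowest at -0.73, followed by GLUD1, glutamate dehydrogenase, at -0.22.

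Of 14 listed substrates and partners of SIRT2, SIRT6 and SIRT7, 11 were expressed, 7 lower and 4 higher, with a median log2 ratio of -0.015. Past 2-fold were 0 of the 11, near the 0.548% lower and 0.595% higher over all expressed genes. The lowest listed genes were RRP9, a nucleolar SIRT7 substrate in ribosomal RNA processing, at -0.59 and CDC20, a mitotic activator that SIRT2 deacetylates, at -0.53. ELK4, the factor that recruits SIRT7 to promoters, was highest at 0.39, but its 6 probe sets ran from -0.30 to 0.45. The next was KMT5A, a histone methyltransferase, at 0.10.

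**Figure D4:**
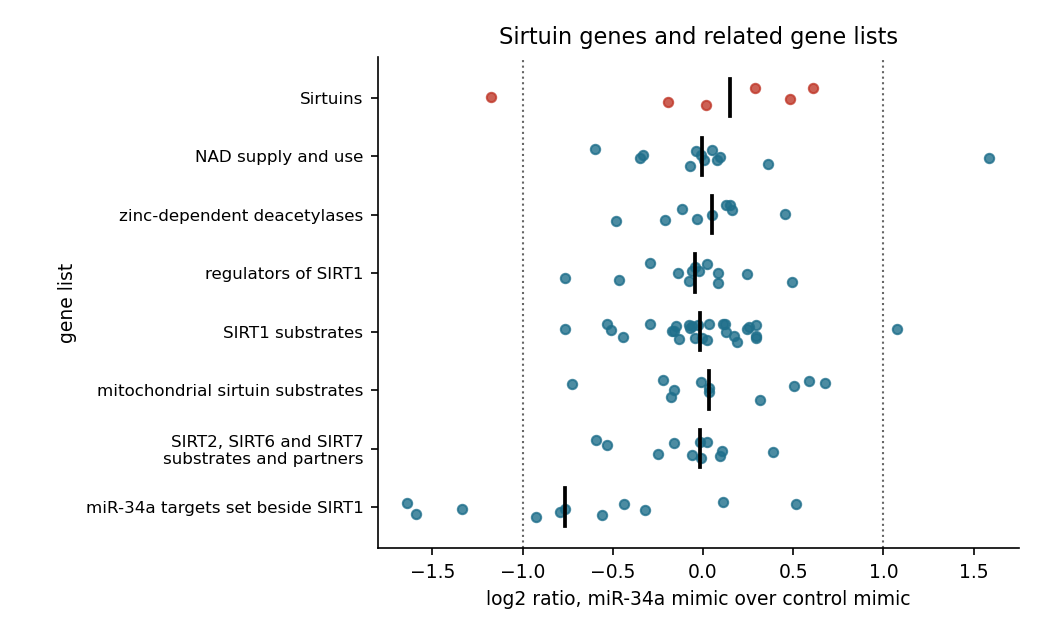
Log2 ratio of miR-34a over control for the expressed genes of the sirtuin family (red) and of 7 related lists (blue), 1 point per gene, with the list median as a black bar and 2-fold as dotted lines. The target list has a median of -0.77, and the medians of the other 6 related lists lie between -0.044 and 0.047. The lists were drawn up with earlier results of these arrays known, so the medians are no independent evidence of direction.

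Both arrays had similar scales, with a median signal of 40.1 for miR-34a and 39.5 for the control, and the log2 ratios of 18 spiked-in control probe sets averaged 0.0055 ± 0.068 (SD, across those 18). The 3′ to 5′ signal ratio, which grows with RNA degradation, was 3.53 with miR-34a and 3.07 with the control for GAPDH, and 4.54 with miR-34a and 4.30 with the control for ACTB. The part of this difference in the sirtuin values was not tested. All 7 erythroleukemia markers with a probe set (EPOR, GATA1, HBE1, HBZ, KLF1, TAL1 and TFRC) exceeded background on both arrays, with a summed signal of 30108 with miR-34a and 25338 with the control. Of the markers of other cell types, 1 of 4 lymphoid (CD79A), 1 of 5 myeloid (LYZ) and 2 of 5 stromal, endothelial and epithelial genes (COL1A1 and PECAM1) did. Their summed signals were 468.8 with miR-34a and 425.3 with the control, 700.5 with miR-34a and 648.2 with the control, and 312.0 with miR-34a and 332.3 with the control.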

How the data were processed

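The values deposited by the authors are linear intensity, 1 per probe set and array, with a lowest value of 1. Trizol RNA was turned into biotin-labelled cRNA by the standard Affymetrix method, per the labels' protocols. How background and scale were set is not given in the sources used here. This matters most for dim probe sets.

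The ratio was log2(intensity + 14.9), miR-34a less control, where 14.9 is the 25th percentile of the table, less the median over 12774 expressed genes (0.0090). A gene took its brightest expressed probe set. Only the 41091 probe sets with exactly 1 symbol in the platform annotation were used for genes (1801 had several, 11721 none). Of the 41091, 99.9% had a gene ID in the RefSeq table of GRCh38.p14, used for names and gene order only. The members, lists, thresholds and the rule for named genes were chosen with earlier results of these data known. The rule names all sirtuin probe sets, the 2 highest and 2 lowest expressed members of each list and any past 2-fold, NAMPT, NNMT, CCAR2, RPS19BP1, ELAVL1, MYC and the 5 genes most like SIRT1, and it allows any target or HDAC gene. With 1 array per arm nothing was tested, and genes were counted by size. The calculation was tested on simulated data. Some listed genes are not analysed here. Python 3.11.15, NumPy 2.4.6, pandas 2.3.3, statsmodels 0.14.6 and matplotlib 3.10.9 were used.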

Additional observations from a re-analysis of the deposited data

How the results depend on the processing

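The alternatives changed the pseudocount, centring, normalization, level filter, probe sets per gene and size threshold. A log2 ratio counted as moved when it shifted by more than 0.24, the pooled SD between probe sets of a gene. SIRT1 kept a log2 ratio of -1.23 to -1.02 over 7 settings and passed 2-fold in each. The 10 expressed sirtuin probe sets kept their sign in those settings and none moved. The count of sirtuin genes at least 2-fold lower was 0 without the _s_at, _x_at and _a_at classes, because SIRT1, SIRT6 and SIRT7 have only such probe sets. At 1.5-fold, 1 gene (SIRT5) and 3 probe sets counted as higher, against 0 at 2-fold. The probe sets at least 2-fold lower were 1 in place of 2 with 4 times the pseudocount or with only expressed probe sets counted. Those at least 2-fold higher were 2 with a pseudocount of 1 or with 0.25 times the pseudocount, both of them dim. The medians of the 7 related lists moved by less than that SD in every alternative, but the near-zero medians of 5 lists changed sign in 1 to 4 of 12 alternatives. No paired analysis was possible because each arm has 1 array. Dim signal limits SIRT4 and 5 of 6 SIRT5 probe sets. No sirtuin value past 2-fold changed sign, and genes of the lists were followed as counts only. Without the _s_at, _x_at and _a_at classes, genes at least 2-fold lower were 1 in place of 3 among the targets set beside SIRT1 and 1 in place of 0 in the NAD list. Genes at least 2-fold higher were 2 in place of 1 in the NAD list with no filter. The added gene, CD38, read 24.2 with miR-34a and 2.58 with the control, both within background. Among SIRT1 substrates, genes at least 2-fold higher were 0 in place of 1 with 4 times the pseudocount.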
